A study of Arabidopsis thaliana with 12 samples.

Results

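The genes described here are the autophagy machinery of Arabidopsis thaliana other than the ATG8 family, 31 of the 28775 genes listed. They were taken by locus code and not by their values. They comprise 8 genes of the ATG1 kinase complex, 3 of the phosphatidylinositol 3-kinase (PI3K) complex, 10 of the ATG9, ATG2 and ATG18 group, 9 of the conjugation of ATG8 and ATG12, and the cargo receptor NBR1. Of these, 30 had enough counts to be tested. The other, ATG18E (AT5G05150), had 0 counts in all 12 libraries, which allows up to 3 counts, or 0.271 to 0.866 CPM depending on the library.

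Autophagy encloses parts of the cytoplasm in a double membrane and delivers them to the vacuole, where they are broken down and their building blocks reused. The ATG1 kinase complex starts the process, the PI3K complex marks the membrane with a lipid, and ATG9, ATG2 and the ATG18 proteins bring in further membrane. A ubiquitin-like conjugation pathway then joins ATG8 to that membrane, and receptors such as NBR1 bind both ATG8 and cargo. In plants, autophagy rises when carbon or nitrogen runs short, and SnRK1, an energy-sensing protein kinase, is known to act on the ATG1 complex.

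Messenger RNA of whole seedlings (ecotype Col-0, 3 weeks old) was sequenced as 12 libraries in 4 groups of 3, to ask which genes of the starvation response need SnRK1 or the S1 bZIP transcription factors. The SnRK1-labelled line joins a knockout of the catalytic subunit gene snrk1-alpha-1 with an inducible knockdown of snrk1-alpha-2, and was set against a wild type; both had 6 d with an additive that the labels call Est, starting when seedlings were 14 d old. The S1-labelled line lacks bZIP1 and bZIP53 as knockouts, carries an inducible knockdown aimed at bZIP2, bZIP11 and bZIP44, and was set against a wild type of its own; both stayed 5 d longer without Est and then had it for 1 d. Every group, wild types included, had Est and a night prolonged by 6 h. Thus neither darkness nor Est itself was compared with its absence, and the sources used here do not give the promoter that drives the knockdowns.

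Libraries held 3760168 to 9403687 counts. Levels are given as CPM (counts scaled to a common library size, after TMM normalisation), and differences as log2 fold changes ± standard error from edgeR's quasi-likelihood test, with Benjamini-Hochberg adjusted p over 18388 genes. Whether replicates are separate cultures is not in the labels, so the p-values speak only for the spread among these samples, which may be technical. KIN11, the gene snrk1-alpha-2, was at 33.6 ± 8.53 CPM in the SnRK1-labelled line and 99.4 ± 14.5 CPM in its wild type (SD, n = 3 each). KIN10, the gene snrk1-alpha-1, still gave 62.5 ± 2.81 CPM in that line and 88.1 ± 10.7 CPM in its wild type, a log2 fold change of -0.50 ± 0.12 that was 0.10 when libraries were scaled by their totals. In the S1-labelled line bZIP1 fell by 2.62 and bZIP53 fell by 2.26 on the log2 scale. There bZIP2 averaged 66.7 CPM in the line and 66.1 CPM in its wild type (adjusted p = 0.979), so a fall of its RNA was not seen. Counts of RNA do not show the level of its protein. For bZIP11 and bZIP44 (adjusted p = 0.872 and 0.322), with 2 to 15 counts per library of these groups, a fall could not be judged. KIN11 was lower in the S1-labelled line as well, at 43.5 ± 2.91 CPM against 75.4 ± 9.48 CPM in its wild type (-0.80 ± 0.16 on the log2 scale, adjusted p = 0.0135), and was called lower under all 4 scalings in both lines. All 4 leaf markers were detected in every group and summed to 2667 to 5333 CPM in the SnRK1-labelled line, against 18967 to 26554 CPM in its wild type. The 4 root markers summed to 12.3 to 19.0 CPM in that line and 17.6 to 21.4 CPM in its wild type, but they moved apart. CASP1 averaged 0.480 CPM in the line and 3.43 CPM in the wild type, CASP2 0.292 CPM in the line and 6.497 CPM in the wild type, and PHT1;1 3.48 CPM in the line and 8.01 CPM in the wild type, all 3 called lower under TMM, while PHT1;4 averaged 12.1 CPM in the line and 1.36 CPM in the wild type and was called higher. The seed storage genes CRU3 and OLEO1 were at 0 throughout, and of the senescence markers SAG12 was at 0 throughout and SAG13 averaged 142 CPM in that line and 1.10 CPM in its wild type. The 10 most abundant genes took 4.096% to 5.27% of the counts in the SnRK1-labelled line, against 10.8% to 12.3% in its wild type. How far leaf, root or flower content, senescence or this change in the make-up of the RNA bears on the values below was not tested.

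In the SnRK1-labelled line the machinery did not move as a block. Of the 30 genes tested, 6 rose, 11 fell and 13 were not called, so 20% rose and 36.7% fell, where 35.4% and 33% of all genes tested did and 68.4% were called in either direction. Higher were ATG18D, the ATG1-type kinase gene AT3G61960, ATG7, ATG9, NBR1 and VPS34. The deepest falls were in ATG5, ATG13, ATG11 and ATG18G. The members' median log2 fold change was -0.27, against 0.04 for all genes tested. By groups without overlap, 6 members had every SnRK1-labelled library above every wild type library (20%, against 36.9% of all genes) and 13 had every library below (43.3%, against 34% of all genes). In whole seedlings, fewer cells of a type and less RNA per cell cannot be told apart.

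**Figure D1:**
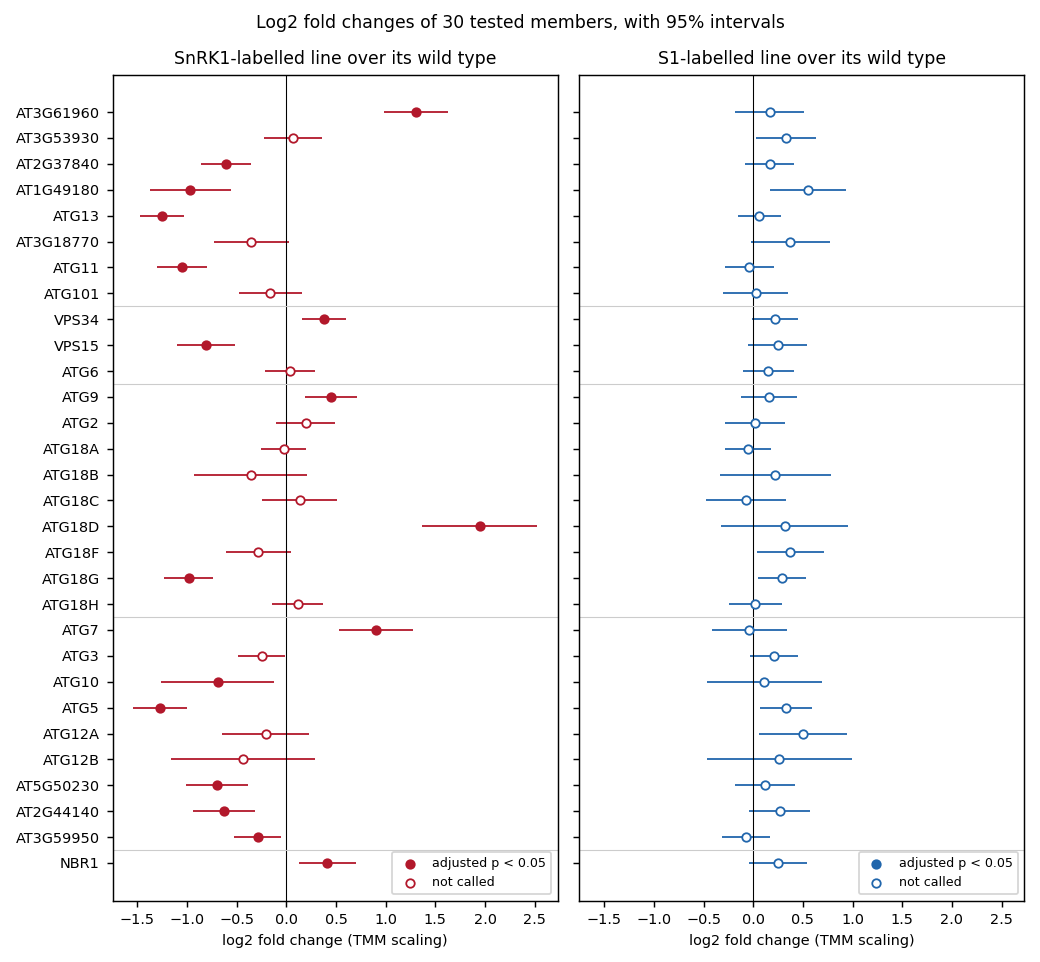
Log2 fold changes of the 30 members tested, with 95% intervals as bars, in the SnRK1-labelled line over its wild type (left) and the S1-labelled line over its wild type (right). Filled points are called at an adjusted p under 0.05 and grey lines part the functional groups. On the left, values run from -1.27 for ATG5 to 1.95 for ATG18D, and on the right no point is filled and values run from -0.07 to 0.55.

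The scale of the libraries decides part of this count. Under TMM the median of all genes was 0.04, under TMM computed on the 5000 most expressed genes it was 0.40, and by library totals alone 0.64. The members followed, with 12 higher and 7 lower on the 5000 genes and 15 higher and 4 lower by totals. Of all genes tested, 47.8% were higher and 21.8% lower on the 5000 genes, and 56.9% and 15.98% by totals. By totals, 8 members not called under TMM were called higher, namely AT3G53930, ATG101, ATG6, ATG2, ATG18A, ATG18C, ATG18H and ATG3. A change of scaling moves all genes nearly alike, so the members' median keeps its distance from that of all genes by construction, at -0.30 under TMM. Under all 4 scalings tried, which include relative log expression factors, 10 members were called in 1 direction. These were all 6 that rose, and ATG13, ATG5, ATG18G and ATG11 among those that fell. Each of the other scalings raised the values above those under TMM (median of all genes 0.05 under relative log expression factors). They thus put only the falls to a test, and the calls of the 6 that rose were kept by construction.

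**Figure D2:**
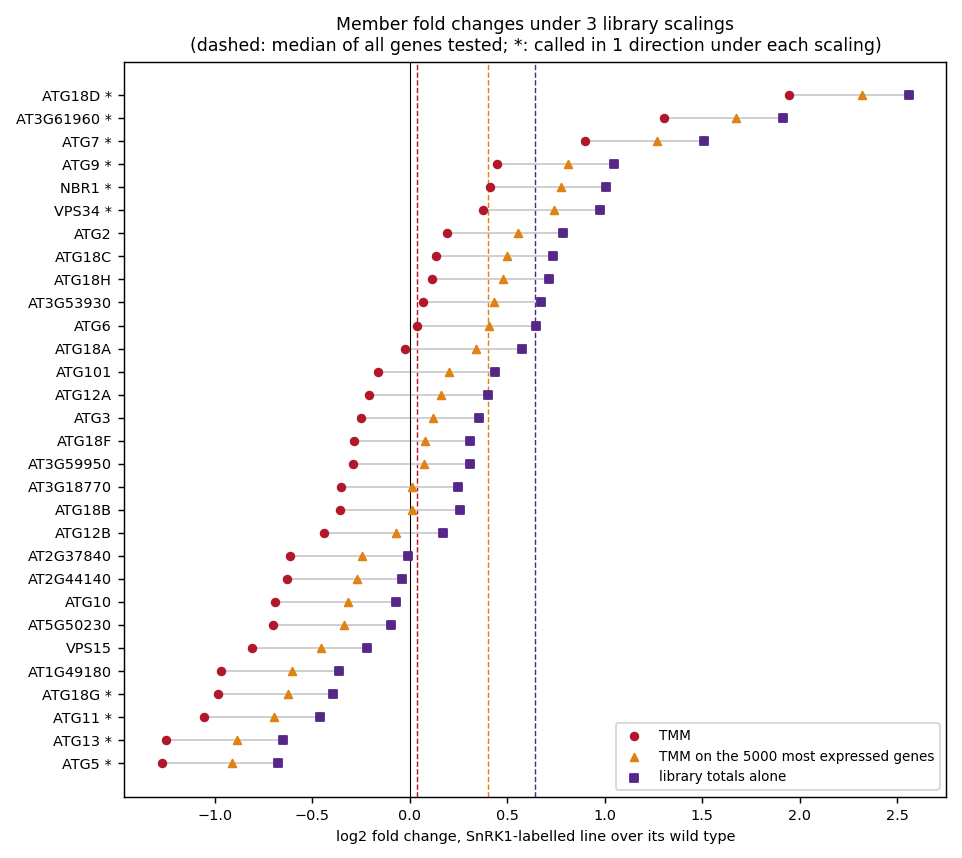
Log2 fold change of each member in the SnRK1-labelled line over its wild type under 3 library scalings (circle, TMM; triangle, TMM on the 5000 most expressed genes; square, library totals). Dashed lines mark the median of all genes under each scaling, at 0.04, 0.40 and 0.64, and an asterisk marks the 10 members called in 1 direction under every scaling. The other scalings raise the values above those under TMM, so the asterisk reflects a test only for members that fell. The share of all genes that would carry it was not computed.

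Within the ATG1 kinase complex, which starts the formation of autophagosomes, 1 of 8 genes rose, 4 fell and 3 were not called in the SnRK1-labelled line. Of all genes tested, 35.4% rose and 33% fell. The 4 kinase genes moved apart. AT3G61960, annotated as a protein kinase and counted here among the ATG1 kinases, was at 38.9, 50.5 and 43.0 CPM in the SnRK1-labelled line, against 17.8, 16.5 and 19.9 CPM in its wild type. Every library of the line lay above every wild type library, and the log2 fold change was 1.31 ± 0.15 (2.47-fold, adjusted p = 8.77e-07). AT2G37840, a second such kinase gene, was at 19.2, 19.6 and 23.4 CPM in the line and 33.1, 29.8 and 31.7 CPM in the wild type. Its libraries were lower without overlap (log2 fold change -0.61 ± 0.12, adjusted p = 0.000230), although by library totals the value was -0.01 (adjusted p = 0.963). AT1G49180, a further such kinase gene, was at 4.26, 4.60 and 4.36 CPM in the line and 9.01, 7.24 and 10.1 CPM in the wild type. It fell by 0.97 ± 0.19 on the log2 scale (adjusted p = 0.000273), again without overlap, and by totals by 0.36 (adjusted p = 0.142). The kinase gene AT3G53930 lay between 16.97 and 18.6 CPM in the line and between 16.1 and 17.8 CPM in the wild type, and was not called (0.07 ± 0.14, adjusted p = 0.671).

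The regulatory and scaffold genes of the same complex were lower or not called. ATG13 (AT3G49590), the regulatory partner of the ATG1 kinase, was at 30.5, 28.2 and 33.2 CPM in the SnRK1-labelled line, against 76.9, 72.1 and 68.1 CPM in its wild type. The groups were far apart, and the log2 fold change of -1.25 ± 0.11 had the smallest adjusted p of all members (2.30e-08). The second ATG13 gene, AT3G18770, was at 9.404, 10.4 and 8.56 CPM in the line and 10.7, 12.0 and 14.4 CPM in the wild type. Its libraries did not overlap either, but the change of -0.35 ± 0.18 was not called (adjusted p = 0.0900). ATG11 (AT4G30790), a scaffold that links the complex to the membrane, was at 58.3, 47.8 and 53.2 CPM in the line and 111, 103.5 and 115 CPM in the wild type. It fell in every library (log2 fold change -1.05 ± 0.12, adjusted p = 6.09e-07). Its exons overlap those of the opposite-strand gene AT4G30780 over 13%, and that neighbour had a log2 fold change of -0.04. ATG101 (AT5G66930), which binds ATG13, lay between 16.1 and 22.7 CPM in the line and between 18.1 and 24.8 CPM in the wild type and was not called (-0.16 ± 0.15, adjusted p = 0.347).

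In the PI3K complex 1 of 3 genes rose, 1 fell and 1 was not called, where 35.4% of all genes rose and 33% fell. VPS34 (AT1G60490), the lipid kinase itself, was at 56.3, 53.9 and 53.3 CPM in the SnRK1-labelled line, against 41.7, 41.8 and 42.4 CPM in its wild type. It rose without overlap (log2 fold change 0.38 ± 0.11, adjusted p = 0.00429). VPS15 (AT4G29380), the regulatory subunit that holds VPS34 active, was at 97.3, 78.0 and 93.2 CPM in the line and 169.6, 147 and 153 CPM in the wild type. It fell without overlap (log2 fold change -0.81 ± 0.14, adjusted p = 6.89e-05), and by library totals the value was -0.22 (adjusted p = 0.161). Over 7.89% of its exons it overlaps AT4G29390, whose own log2 fold change was 0.55. ATG6 (AT3G61710), the plant form of Beclin 1, lay between 24.95 and 28.4 CPM in the line and between 24.96 and 28.1 CPM in the wild type, with a log2 fold change of 0.04 ± 0.12 (adjusted p = 0.786). On the 5000 most expressed genes ATG6 was called higher (0.41, adjusted p = 0.00830), as by library totals (0.65, adjusted p = 0.000468).

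Of the 9 genes tested in the ATG9, ATG2 and ATG18 group, 2 rose, 1 fell and 6 were not called in the SnRK1-labelled line. The shares over all genes were 35.4% higher and 33% lower. ATG9 (AT2G31260), the membrane protein whose vesicles seed the growing membrane, was at 44.0, 39.6 and 32.9 CPM in the line, against 28.6, 27.3 and 30.01 CPM in its wild type. It rose without overlap (log2 fold change 0.45 ± 0.12, adjusted p = 0.00420). ATG2 (AT3G19190), which carries lipid to that membrane, lay between 64.2 and 84.8 CPM in the line and between 56.0 and 73.1 CPM in the wild type and was not called (0.19 ± 0.14, adjusted p = 0.235).

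The ATG18 genes encode propeller proteins that bind the lipid made by VPS34. ATG18D (AT3G56440) was at 6.02, 6.41 and 4.81 CPM in the SnRK1-labelled line and 1.67, 1.48 and 1.15 CPM in its wild type, which rests on 48, 71 and 32 counts in the line and 13, 9 and 4 in the wild type. The groups did not overlap, and its log2 fold change of 1.95 ± 0.27 (3.85-fold, adjusted p = 7.85e-06) was the highest of all members tested. ATG18G (AT1G03380), which took the largest share of the family's counts in that wild type, was at 71.7, 56.6 and 64.9 CPM in the line and 132, 124.8 and 124.7 CPM in the wild type. It fell without overlap (log2 fold change -0.98 ± 0.12, adjusted p = 1.16e-06). ATG18F (AT5G54730) was at 30.7, 26.5 and 20.7 CPM in the line and 29.9, 31.1 and 35.2 CPM in the wild type. These ranges met, and the change of -0.29 ± 0.16 was not called (adjusted p = 0.113). The remaining detected genes, ATG18A, ATG18B, ATG18C and ATG18H, had log2 fold changes from -0.36 to 0.13, with overlapping groups. For ATG18A (AT3G62770), at 57.4 to 65.6 CPM in the line and 54.2 to 67.4 CPM in the wild type, the value was -0.03 under TMM but 0.58 by library totals (adjusted p = 8.46e-05).

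In the conjugation pathway 1 of 9 genes rose, 5 fell and 3 were not called in the SnRK1-labelled line. Here too 35.4% of all genes rose and 33% fell, and 68.4% were called in either direction. ATG7 (AT5G45900), the activating enzyme that charges both ATG8 and ATG12, was at 20.7, 16.3 and 18.03 CPM in the line, against 11.2, 10.5 and 6.64 CPM in its wild type. It rose without overlap (log2 fold change 0.90 ± 0.18, adjusted p = 0.000237). ATG5 (AT5G17290), to which ATG12 is joined, was at 14.5, 14.1 and 18.5 CPM in the line and 34.5, 37.9 and 41.3 CPM in the wild type. Of all members tested it had the lowest log2 fold change, at -1.27 ± 0.13 (adjusted p = 2.10e-07), and the groups were far apart. Its exons overlap the opposite-strand gene AT5G17280 over 27.6%, whose own log2 fold change was -0.31 with an adjusted p of 0.0335, so that part of the reads cannot be assigned without strand.

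Among the other conjugation genes, AT5G50230, a WD40 protein with an ATG16 domain, was at 30.5, 24.7 and 30.3 CPM in the SnRK1-labelled line and 51.0, 51.9 and 33.8 CPM in its wild type. It fell without overlap (log2 fold change -0.70 ± 0.15, adjusted p = 0.000448), but 1 wild type library was close to the line, and by library totals the value was -0.10 (adjusted p = 0.538). ATG10 (AT3G07525), the enzyme that passes ATG12 to ATG5, was at 5.64, 4.15 and 6.31 CPM in the line and 11.8, 7.74 and 4.62 CPM in the wild type. These groups overlapped. The log2 fold change was -0.69 ± 0.27 (adjusted p = 0.0314), and the call was lost without wild type replicate 1 (adjusted p = 0.377) or SnRK1-labelled replicate 2 (adjusted p = 0.119). ATG3 (AT5G61500), the enzyme that passes ATG8 to its lipid, was at 42.6, 42.5 and 33.4 CPM in the line and 46.2, 50.04 and 44.7 CPM in the wild type. Every library of the line was below, yet the change of -0.25 ± 0.11 was not called (adjusted p = 0.0597), and by totals it was 0.35. ATG12A (AT1G54210) and ATG12B (AT3G13970), the small ubiquitin-like proteins joined to ATG5, had log2 fold changes of -0.21 ± 0.21 and -0.44 ± 0.34 and were not called. ATG12B was at 1.88, 1.35 and 1.95 CPM in the line and 2.32, 2.47 and 2.02 CPM in the wild type, without overlap. It had 13 to 15 counts in the libraries of the line and 7 to 18 in those of the wild type, which leaves a wide interval of -1.16 to 0.29.

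The 2 genes of peptidase family C54, the ATG4 proteases that trim ATG8 and free it again, were both called lower under TMM. AT2G44140 was at 81.4, 59.8 and 76.2 CPM in the SnRK1-labelled line, against 116, 105.0 and 115 CPM in its wild type. The groups did not overlap (log2 fold change -0.63 ± 0.15, adjusted p = 0.00128), while by library totals the value was -0.04 (adjusted p = 0.812). Of its exons 42.6% overlap the opposite-strand gene AT2G44130, whose own log2 fold change was -0.59 with an adjusted p of 0.0128, so reads of that part cannot be assigned without strand. AT3G59950 was at 38.5, 36.1 and 36.2 CPM in the line and 41.7, 49.1 and 44.7 CPM in the wild type. The log2 value of -0.29 ± 0.11 (adjusted p = 0.0312) turned to 0.31 by totals (adjusted p = 0.0285), and the call was lost without wild type replicate 2 (adjusted p = 0.1316) or SnRK1-labelled replicate 2 (adjusted p = 0.0622). It overlaps its neighbours over 7.55% of its exons, and 1 of these, AT3G59940, was at 244.7 CPM in the line and 768 CPM in the wild type.

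NBR1 (AT4G24690), the receptor that binds ubiquitylated cargo and is itself degraded with it, was at 526, 465 and 409 CPM in the SnRK1-labelled line, against 374, 343 and 334 CPM in its wild type. It rose without overlap (log2 fold change 0.41 ± 0.14, adjusted p = 0.0127), with the call lost without wild type replicate 3 (adjusted p = 0.0518) or SnRK1-labelled replicate 1 (adjusted p = 0.0672). NBR1 alone held 34.9%, 34.7% and 31.01% of all member counts in the line, against 23.1%, 22.5% and 22.0% in the wild type. Without NBR1 the members summed to 981, 877 and 909 CPM in the line and 1244, 1178 and 1184 CPM in the wild type. As a share of all library counts, with no TMM factor, all members together took 0.184%, 0.185% and 0.173% in the line and 0.134%, 0.128% and 0.140% in the wild type. The summed CPM was thus lower in the line and the share of counts higher.

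**Figure D3:**
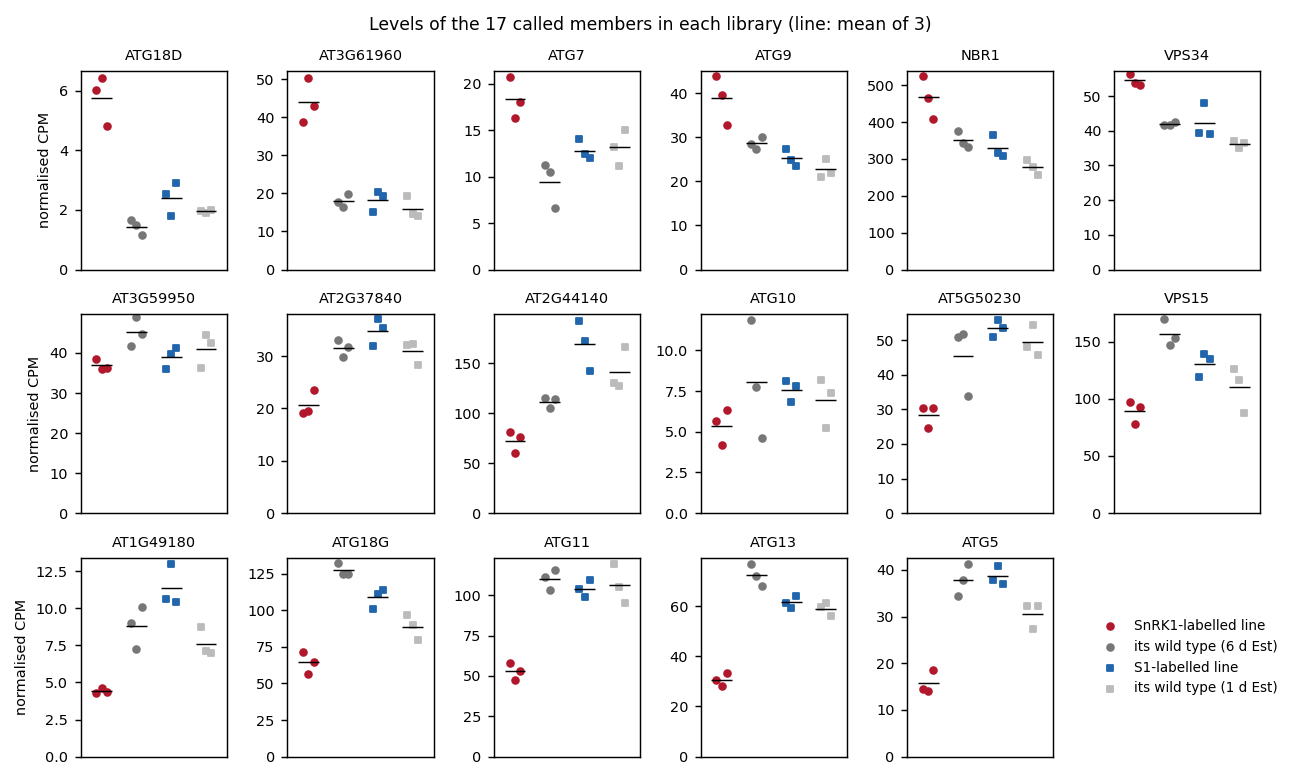
Level in each library, as CPM after TMM scaling, of the 17 members called in the SnRK1-labelled line against its wild type, with the mean of 3 libraries as a line. Each panel starts at 0 and shows the SnRK1-labelled line, its wild type with 6 d of Est, the S1-labelled line and its wild type with 1 d of Est. ATG10 is the panel in which the SnRK1-labelled line and its wild type overlap.

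Shares and ratios of counts within a library do not depend on the library scale. The pairs below were chosen after their values were seen and were given no test. AT3G61960 took 48.4%, 55.1% and 48.1% of the counts of the 4 ATG1 kinase genes in the SnRK1-labelled line, against 23.4%, 23.1% and 25.2% in its wild type. AT2G37840 took 23.9%, 21.4% and 26.2% in the line and 43.6%, 41.8% and 40.1% in the wild type. The most counted of the 4 kinase genes was thus AT3G61960 in the line and AT2G37840 in the wild type.

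VPS34 counts were 0.579, 0.691 and 0.573 of VPS15 counts in the SnRK1-labelled line and 0.246, 0.284 and 0.277 in its wild type. The ratio of ATG7 to ATG5 counts was 1.42, 1.16 and 0.976 in the line and 0.325, 0.278 and 0.161 in the wild type. Of the ATG18 family counts, ATG18G held 30.4%, 27.5% and 33.0% in the line and 45.8%, 45.9% and 46.9% in the wild type. In each of these the groups were apart by more than the spread of their libraries. The AT2G37840 share was 40.9% to 42.6% in the S1-labelled line and 43.8% to 44.7% in its wild type, lower without overlap there too. In the S1-labelled line and its wild type the groups overlapped for AT3G61960 (20.1% to 23.2% in the line, 20.1% to 26.3% in the wild type) and for VPS34 over VPS15 (0.292 to 0.345 in the line, 0.294 to 0.416 in the wild type). For ATG7 over ATG5 the S1-labelled line was below its wild type (0.304 to 0.369 in the line, 0.409 to 0.466 in the wild type), and its ATG18G share was above (42.8% to 46.1% in the line, 38.4% to 42.3% in the wild type). The wild types of both experiments were themselves apart without overlap in VPS34 over VPS15, ATG7 over ATG5 and the ATG18G share. In the wild type of the SnRK1-labelled line both ratios were lower and the ATG18G share was higher.

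**Figure D4:**
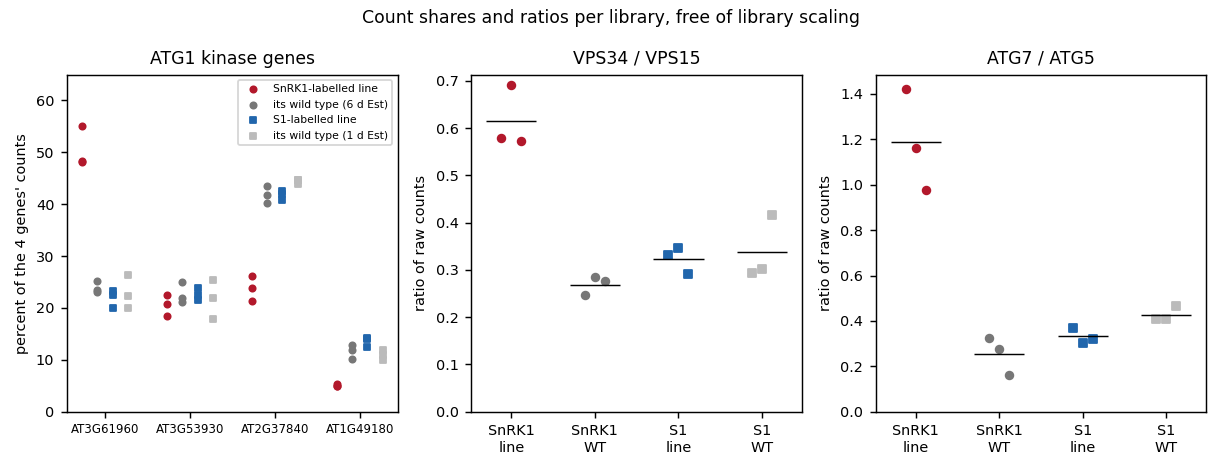
Share of the counts of the 4 ATG1 kinase genes held by each (left), VPS34 over VPS15 counts (middle) and ATG7 over ATG5 counts (right), 1 point per library, with the mean of 3 as a line in the ratio panels. In the SnRK1-labelled line AT3G61960 holds 48.1% to 55.1%, the VPS34 ratio is 0.573 to 0.691 and the ATG7 ratio 0.976 to 1.42, each above all other libraries.

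In the S1-labelled line no member was called by edgeR at an adjusted p under 0.05, where 2.58% of all genes were (1.63% higher and 0.952% lower). DESeq2, which gave an adjusted p for 29 members, called 0 as well. At an unadjusted p under 0.05 there were 6 members, among 2992 of 18388 genes. Values were mostly above 0, with 25 of 30 members positive, against 9048 of 18388 genes, and a median log2 fold change of 0.19, against 0.00 for all genes. By library totals the median of all genes was 0.11 and that of the members 0.31, with 558 genes called higher and 102 lower, against 299 and 175 under TMM. In 6 members, AT1G49180, VPS34, ATG18G, ATG3, ATG5 and NBR1, every library of the line lay above every library of its wild type (20%, against 11.6% of all genes). The 95% interval ran from -0.16 to 0.28 for ATG13 and from -0.01 to 0.45 for VPS34, and was wider for genes with few counts, at -0.47 to 0.99 for ATG12B.

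The value farthest from 0 was that of AT1G49180, at 10.6, 13.0 and 10.4 CPM in the S1-labelled line, against 8.72, 7.13 and 6.996 CPM in its wild type (a difference of 0.55 ± 0.18, adjusted p = 0.127). ATG5 was at 37.9, 40.9 and 37.1 CPM in the line and 32.4, 27.3 and 32.2 CPM in the wild type (0.33 ± 0.13, adjusted p = 0.194). NBR1 was at 365, 315 and 307 CPM in the line and 296, 277 and 258 CPM in the wild type (0.25 ± 0.14, adjusted p = 0.391). In these 3 genes the groups did not overlap, but none passed the test. Lowest was ATG18C, with a log2 fold change of -0.07 ± 0.19 (adjusted p = 0.931).

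The difference between both responses, that of the SnRK1-labelled line minus that of the S1-labelled line, was tested within 1 fit. It was called for 15 of 30 members, 3 higher and 12 lower, where 54.5% of all genes were called (27.2% higher and 27.3% lower). The median was -0.52, against 0.03 for all genes. Over all genes 5002 were called higher and 5013 lower, which became 7678 and 2601 by library totals and 6945 and 3207 on the 5000 most expressed genes, with medians of 0.51 and 0.38. Of the 17 members called in the SnRK1-labelled line, 12 were also called here and 5 were not, namely VPS34, ATG9, NBR1, ATG10 and AT3G59950. The lines also differed in their days of Est, so line and exposure cannot be told apart in this comparison.

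Higher in the difference were ATG18D (1.63 ± 0.42, adjusted p = 0.00345), AT3G61960 (1.14 ± 0.22, adjusted p = 0.000425) and ATG7 (0.94 ± 0.25, adjusted p = 0.00476). In the S1 groups, ATG18D was at 2.54, 1.80 and 2.91 CPM in the line and 1.97, 1.90 and 2.00 CPM in the wild type. AT3G61960 was there at 15.2, 20.4 and 19.3 CPM in the line and 19.3, 14.5 and 14.2 CPM in the wild type. ATG7 was at 14.0, 12.4 and 11.9 CPM in the line and 13.2, 11.2 and 14.99 CPM in the wild type. All 3 overlapped between the S1-labelled line and its wild type. They were also called higher by library totals, but totals raise the difference (median of all genes 0.51), so this does not test those calls.

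Of the 12 members called lower, 6 kept their call by library totals, namely ATG5, AT1G49180, ATG13, ATG18G, VPS15 and ATG11. By totals 14.1% of all genes were called lower in the difference. AT1G49180 and VPS15 were not called by totals in the SnRK1-labelled line itself (adjusted p = 0.142 and 0.161). Their log2 fold changes in the S1-labelled line under TMM were 0.55 and 0.25, neither of them called. The lowest differences were those of ATG5 (-1.60 ± 0.18, adjusted p = 2.68e-06), AT1G49180 (-1.52 ± 0.26, adjusted p = 0.000147), ATG13 (-1.31 ± 0.15, adjusted p = 2.58e-06) and ATG18G (-1.27 ± 0.17, adjusted p = 9.77e-06). ATG13 was at 61.1, 59.4 and 64.0 CPM in the S1-labelled line and 59.7, 61.3 and 56.2 CPM in its wild type, which overlapped. ATG18G was at 101, 111 and 114 CPM in the line and 96.5, 90.1 and 79.95 CPM in the wild type, which did not. VPS15 (-1.06 ± 0.20) and ATG11 (-1.01 ± 0.17) followed. For VPS15 the S1-labelled line had 119, 139 and 134.5 CPM and its wild type 126, 116.5 and 87.5 CPM. For ATG11 these were 103.6, 98.7 and 109 CPM in the line and 119.7, 105 and 95.1 CPM in the wild type. Both overlapped.

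The remaining members called lower in the difference were AT2G44140 (-0.89 ± 0.21), AT5G50230 (-0.82 ± 0.21), AT2G37840 (-0.78 ± 0.17), AT3G18770 (-0.72 ± 0.26), ATG18F (-0.66 ± 0.22) and ATG3 (-0.45 ± 0.16). Their adjusted p-values ran from 0.000931 for AT2G37840 to 0.0261 for AT3G18770. The last 3 of the list were not called in the SnRK1-labelled line itself. AT3G18770 was at 9.18, 11.9 and 12.1 CPM in the S1-labelled line and 9.29, 9.27 and 6.796 CPM in its wild type. ATG18F was at 26.7, 38.2 and 30.9 CPM in the line and 26.7, 24.5 and 22.0 CPM in the wild type, and ATG3 at 41.5, 43.6 and 43.2 CPM in the line and 38.4, 36.9 and 35.8 CPM in the wild type. Only ATG3 among these 3 was without overlap, and by library totals its difference was 0.02 (adjusted p = 0.919). AT2G44140 was at 193, 173 and 143 CPM in the S1-labelled line and 129.99, 127 and 166 CPM in its wild type. AT5G50230 was at 50.8, 56.0 and 53.6 CPM in the line and 48.0, 54.4 and 45.8 CPM in the wild type, and AT2G37840 at 31.9, 37.1 and 35.4 CPM in the line and 32.1, 32.3 and 28.4 CPM in the wild type. These 3 overlapped between the S1-labelled line and its wild type.

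The wild types alone, with 6 d of Est against 1 d, showed fewer calls. Of 30 members 2 were higher and 0 lower, where 12.1% of all genes were called (6.17% higher and 5.94% lower), and the median was 0.19, against -0.01 for all genes. ATG18G was at 132, 124.8 and 124.7 CPM in the wild type with 6 d and 96.5, 90.1 and 79.95 CPM in that with 1 d (log2 fold change 0.52 ± 0.12, adjusted p = 0.00900). VPS15 was at 169.6, 147 and 153 CPM in the wild type with 6 d and 126, 116.5 and 87.5 CPM in that with 1 d (0.51 ± 0.14, adjusted p = 0.0261). Neither gene overlapped between the wild types, and both kept their call by library totals, under which 724 of all genes were called higher and 1438 lower, against 1135 and 1092 under TMM (898 and 1388 on the 5000 most expressed genes). The VPS15 call was lost when any 1 of 5 of the 6 libraries was left out (adjusted p = 0.0527 to 0.117) and kept without replicate 1 of the wild type with 1 d. At an unadjusted p under 0.05 there were 11 of 30 members, among 5085 of 18388 genes. In 10 members every library with 6 d was above (33.3%, against 17% of all genes) and in 2, ATG18D and AT2G44140, every library was below (6.67%, against 17%). These wild types came with different lines, so days of Est and the experiment cannot be told apart. They are also the controls of the responses above, which share their libraries with this comparison.

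Levels can be ranked between genes only per transcript length, taken here from the longest transcript of the annotation. Per kilobase, NBR1 was the highest member in every group, at 170.2 ± 21.4 CPM in the SnRK1-labelled line, 128 ± 7.82 CPM in its wild type, 120.1 ± 11.5 CPM in the S1-labelled line and 101 ± 7.07 CPM in its wild type (SD, n = 3 each). In the wild type with 6 d of Est, ATG18A (35.0 ± 3.89 CPM per kilobase), AT2G44140 (34.0 ± 1.79), ATG18G (30.4 ± 1.03), ATG3 (30.04 ± 1.75), ATG13 (28.3 ± 1.73) and VPS15 (27.7 ± 2.05) came next. Of neighbours in this order AT2G44140 and ATG18G differed by more than the sum of their SDs, and the other pairs by less. The rank of AT2G44140 may include reads of the opposite-strand gene that overlaps 42.6% of its exons. The least abundant detected members there were ATG12B (2.87 ± 0.289) and ATG18D (0.804 ± 0.147). In the SnRK1-labelled line AT3G61960 stood at 18.3 ± 2.43 CPM per kilobase, above AT2G37840 at 6.72 ± 0.760. In its wild type the values were 7.47 ± 0.722 and 10.2 ± 0.533.

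**Figure D5:**
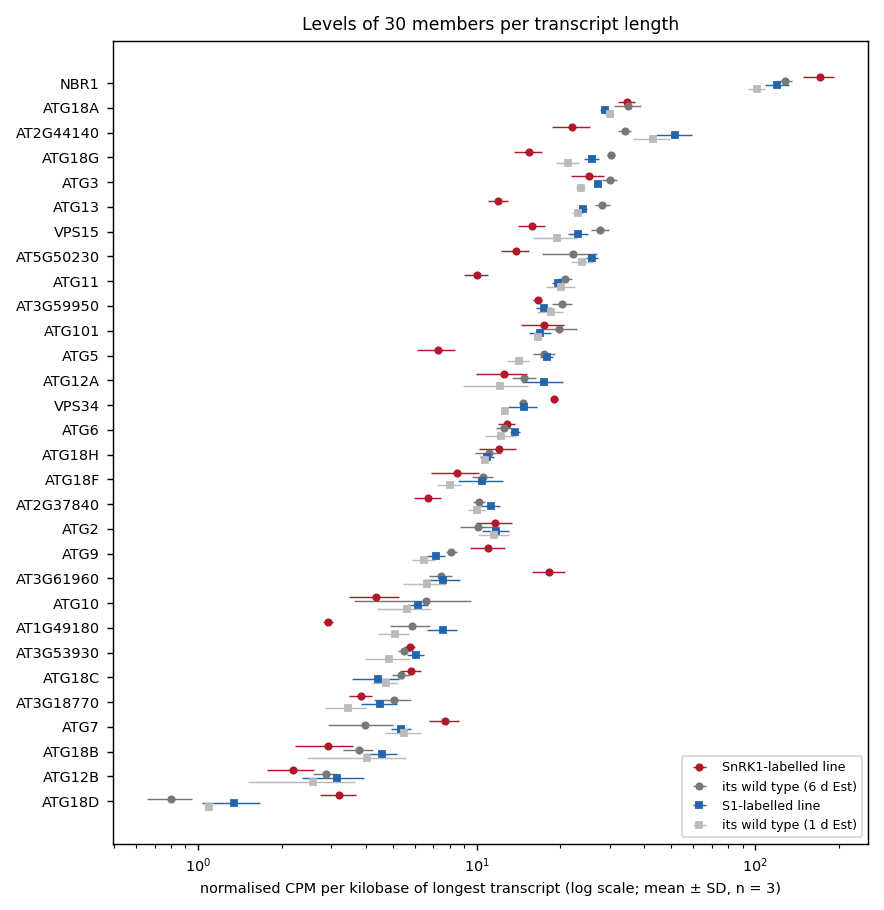
Level of each of the 30 detected members per kilobase of its longest transcript, as CPM after TMM scaling, mean ± SD of 3 libraries on a log axis, ordered by the wild type with 6 d of Est. NBR1 leads in all 4 groups, from 101 to 170.2, and ATG18D in the SnRK1-labelled line stands at 3.22 against 0.804 in its wild type.

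Other genes of the pathway were counted from lists chosen with earlier results known. Of the 9 ATG8 genes, whose products coat the membrane, 2 rose and 4 fell in the SnRK1-labelled line, where 35.4% and 33% of all genes did, with a median log2 fold change of -0.05. On the 5000 most expressed genes these were 4 and 3 with a median of 0.31, and by library totals 5 and 3 with a median of 0.54. ATG8H (1.18 ± 0.19) and ATG8D (0.74 ± 0.20) were higher, and ATG8F (-1.41 ± 0.15), ATG8E (-1.25 ± 0.14), ATG8C (-1.04 ± 0.14) and ATG8I (-0.41 ± 0.14) lower. These directions held by library totals save for ATG8I, which was then at 0.19. Of 11 accessory genes 3 rose and 2 fell, with a median of -0.13. This became 4 and 2 with 0.24 on the 5000 genes and 7 and 2 with 0.47 by totals. Over all genes, 35.4% rose and 33% fell under TMM, 47.8% and 21.8% on the 5000 genes, and 56.9% and 15.98% by totals. Higher were AT1G77890 (1.40 ± 0.17), DSK2A (0.76 ± 0.11), which encodes a ubiquitin receptor, and FYVE1 (0.32 ± 0.11), which acts in the sorting of membrane proteins to the vacuole. ATI1 (-1.05 ± 0.12) and ATI2 (-1.0 ± 0.10), which encode ATG8-binding proteins, were lower, and all 5 kept their call by totals. Totals raise the values in this comparison, so in both lists only the genes called lower were put to a test. None of the 20 genes of both lists was called in the S1-labelled line by edgeR, where 3 ATG8 genes and 0 accessory genes had an unadjusted p under 0.05. Of all genes 2.58% were called there, and 2992 of 18388 had an unadjusted p under 0.05. Between the wild types, ATG8B (1.07 ± 0.22), ATI2 (0.52 ± 0.10) and DSK2B (0.45 ± 0.12) were higher with 6 d of Est and 0 were lower, where 6.17% of all genes were higher and 5.94% lower. By library totals the DSK2B call was lost (0.38, adjusted p = 0.0540).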

How the data were processed

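Messenger RNA of 12 seedling libraries was counted, 3 in each of 4 groups. Libraries were made from 5 µg of total RNA with a NEBNext kit, per the labels' protocols, and the sources used here give no read strand. The submitters' processing notes name FastQC, Bowtie 0.12.8 and SAMtools 0.1.18, with TAIR10 as the build. They do not name a read counter or say how reads with several hits were handled. Each deposited file gives the raw count of 28775 genes in 1 library, in whole numbers whose sum differs between files.

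The members, the other lists, the tests and the alternatives were chosen with earlier results of these data known. All 31 members are named, with a value for every library where a member was called in any comparison. Counts were tested in edgeR 4.0.16 (R 4.3.3). filterByExpr with a minimum count of 10 left 18388 genes, scaling used trimmed means of M values (TMM), and 1 quasi-likelihood fit took all 12 libraries with no term but group (common biological coefficient of variation 13.2%). Calls are Benjamini-Hochberg adjusted p-values under 0.05 over all genes tested. Standard errors come from the F statistic, and 95% intervals from those and the degrees of freedom of the test. Log CPM of libraries in 1 group correlated across genes at r = 0.973 to 0.990, and no pair was as alike as counting noise alone would leave it (chi-square per gene 2.68 to 18.1). The script was tested on simulated data in which few genes changed, in both directions alike. Library scaling was therefore not put to a test there.

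Alternatives were relative log expression factors, library totals alone, TMM on the 5000 most expressed genes, DESeq2 1.42.0, no filter, only the groups compared, a replicate block, and each library left out in turn. The TAIR10.1 annotation gave names, transcript lengths and exon overlaps by locus code. Its name is not that of the build in the notes, so neither coordinates nor sequences are printed. Floors of 3 counts cover counting error only.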

Additional observations from a re-analysis of the deposited data

Results flagged for a closer look

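In 15 members the response of the SnRK1-labelled line differed from that of the S1-labelled line by a test of the difference itself (edgeR's quasi-likelihood test, adjusted p under 0.05 over all genes, where 54.5% of all genes passed). The log2 difference was positive in ATG18D (1.63), AT3G61960 (1.14) and ATG7 (0.94). It was negative in ATG5 (-1.60), AT1G49180 (-1.52), ATG13 (-1.31), ATG18G (-1.27), VPS15 (-1.06), ATG11 (-1.01), AT2G44140 (-0.89), AT5G50230 (-0.82), AT2G37840 (-0.78), AT3G18770 (-0.72), ATG18F (-0.66) and ATG3 (-0.45). The lines had 6 d and 1 d of Est, so line and exposure cannot be told apart. VPS15 and ATG18G were also higher in the wild type with 6 d of Est than in that with 1 d, by 0.51 and 0.52, and these wild types enter the difference. For AT3G18770 the difference was no longer called with DESeq2 (adjusted p = 0.0515) or without wild type replicate 3 of the SnRK1 experiment, wild type replicate 3 or line replicate 3 of the S1 experiment (adjusted p = 0.0574, 0.0658 and 0.0620). For ATG3 it was no longer called with DESeq2 (adjusted p = 0.0522) or without wild type replicate 2 of the SnRK1 experiment (adjusted p = 0.0616).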

How the results depend on the processing

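Library scale moved the counts most. In the SnRK1-labelled line members called higher and lower were 15 and 4 by library totals and 12 and 7 on the 5000 most expressed genes, against 6 and 11 under TMM. Of all genes called, 78.1% and 68.7% were then higher, against 51.8% under TMM. In the difference between responses they were 10 and 6 by totals and 9 and 9 on the 5000 genes, against 3 and 12. Of all genes tested, 41.8% were then higher and 14.1% lower by totals, and 37.8% and 17.4% on the 5000 genes. Some members turned sign where they were called in either fit. By totals, in the SnRK1-labelled line, these were ATG101 (0.44), ATG18A (0.58), ATG3 (0.35) and AT3G59950 (0.31), and in the difference ATG3 (0.025). On the 5000 genes they were ATG18A (0.34) and AT3G59950 (0.074). With only the groups compared, 4 members were higher between the wild types, against 2, and leaving out 1 library each gave 1 to 2. The share of all genes higher there was 8.82% with only the groups compared and 3.29% to 4.55% with 1 library left out. Such omissions gave 5 to 6 higher and 10 to 13 lower in the SnRK1-labelled line and 3 higher and 11 to 13 lower in the difference. Shares over all genes were 31.9% to 34.6% higher and 30.3% to 33.6% lower in that line. For the difference they were 23.9% to 26.5% and 24.8% to 29.1%. In the SnRK1-labelled line DESeq2 gave 6 higher and 9 lower, and so did only the groups compared, where ATG10 and AT3G59950 lost their call in both. The shares over all genes were 33.9% higher and 30.9% lower with DESeq2, and 35.1% and 31.6% with only the groups compared. In the difference DESeq2 gave 3 higher and 10 lower, without AT3G18770 and ATG3, and no filter gave 3 and 13, with ATG12A added (adjusted p = 0.0450). Relative log expression factors and no filter gave 6 higher and 11 lower in the SnRK1-labelled line. The shares over all genes there were 36.1% and 32.4% with those factors, and 28.7% and 25.4% with no filter. The S1-labelled line had 0 called members under every setting run.

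Replicate numbers were not taken as pairs: deviations of libraries with the same number correlated at 0.135, -0.020 and -0.042 in the SnRK1 experiment and at 0.040, -0.017 and -0.091 in the S1 experiment. With the replicate number as a block, 6 members were higher and 12 lower in the SnRK1-labelled line, where ATG3 was added (adjusted p = 0.0468). The shares over all genes there were 36.0% and 33.7%. In the S1-labelled line 0 members were called, where 2.12% of all genes were higher and 1.22% lower. For the difference 3 members were higher and 13 lower, where ATG12A was added (adjusted p = 0.0479), beside 27.9% and 28.2% of all genes. Between the wild types 2 members were higher and 0 lower, beside 7.17% and 6.78% of all genes. Counts of 4 to 18 per library in the wild type with 6 d of Est limit ATG18D and ATG12B, and ATG18E cannot be assessed below 3 counts per library.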
